A study of Homo sapiens with 4 samples.

Results

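HOX cluster genes were taken as the protein-coding entries of the count table whose symbol is HOX followed by a cluster letter A to D and a number. There were 39 of them among 60544 genes, namely 11 in HOXA, 10 in HOXB, 9 in HOXC and 9 in HOXD. They were measured by RNA sequencing of poly(A) RNA in PC3, an established human prostate cancer cell line, with paired reads of 150 bp. The control arm, labelled shNC, and the arm labelled sh812 had 2 libraries each. The series compares METTL3 knockdown with control, and sh812 was read as the knockdown because it is the only other label. METTL3 is the catalytic subunit of the enzyme complex that places N6-methyladenosine on messenger RNA. The labels name 1 cell line and 1 construct per arm, and do not say whether replicates were separate cultures, so p-values measure only the spread between these libraries.

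HOX genes encode transcription factors with a homeodomain, a DNA-binding fold, and lie in 4 clusters on separate chromosomes. Genes that descend from 1 ancestral gene share a number, the paralog group, from 1 to 13. Low-numbered genes lie towards the 3′ end of a cluster and are used towards the head of the embryo, and high-numbered (posterior) genes lie at the 5′ end and are used towards the tail, in limbs and in the urogenital tract. HOXB13 is known for its expression in the prostate, and HOXA13 and HOXD13 for their part in forming the urogenital tract. HOX proteins bind DNA together with cofactors of the TALE family such as PBX and MEIS, and Polycomb and trithorax (MLL) complexes keep the clusters silent or active.

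Total counts per library ran from 31450648 to 37041330, and HOX genes held 12294 to 14750 of them, or 0.0374% to 0.0398%. Counts of METTL3 were 1682 and 1379 in shNC against 269 and 313 in sh812, with a log2 fold change of -2.42 (SE 0.11, edgeR adjusted p = 5.54e-14). All 5 luminal epithelial markers (KRT8, KRT18, KRT19, EPCAM and CDH1) were above 1 CPM (read counts scaled to a common library size). Their summed level was 816 to 1017 CPM, and 3 of the 5 were called higher in sh812, against 5.43% of all genes tested. Leukocyte markers summed to 0.456 to 0.87 CPM, with CD3E at 0, and neuroendocrine markers to 0.422 to 0.95 CPM, with INSM1 at 0. Fibroblast markers summed to 48.0 to 56.6 CPM and endothelial markers to 41.6 to 50.4 CPM. Nearly all of the endothelial sum was PECAM1 (mean 29.7 CPM) and KDR (mean 14.9 CPM), with VWF and CDH5 under 0.1 CPM in each group. Of 5 fibroblast markers tested 1 was called higher and 1 lower in sh812. Of the 2 endothelial markers tested PECAM1 was called higher and KDR lower. Over all genes tested 5.43% were called higher and 5.42% lower. Of the 5 androgen receptor lineage markers, KLK2 and KLK3 were at 0, and the list summed to 28.8 and 30.2 CPM in shNC and to 11.45 and 13.9 CPM in sh812. The part of these markers in the HOX values below was not tested.

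A HOX gene was taken as expressed at a mean of at least 1 CPM over the 4 libraries, and 19 of the 39 were. Another 10 passed the low-count filter of the test at a lower level, and 10 did not pass it. Expressed genes were 9 of 11 in HOXA, 5 of 10 in HOXB, 4 of 9 in HOXC and 1 of 9 in HOXD. At a mean of at least 0.5 CPM 23 HOX genes would count as expressed, at 2 CPM 16, and at a mean of 1 TPM (the same per exon length) 24. HOXB1 and HOXD11 had no count in any library, which limits each to at most 3 counts, or 0.0791 to 0.0949 CPM, per library.

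**Figure D1:**
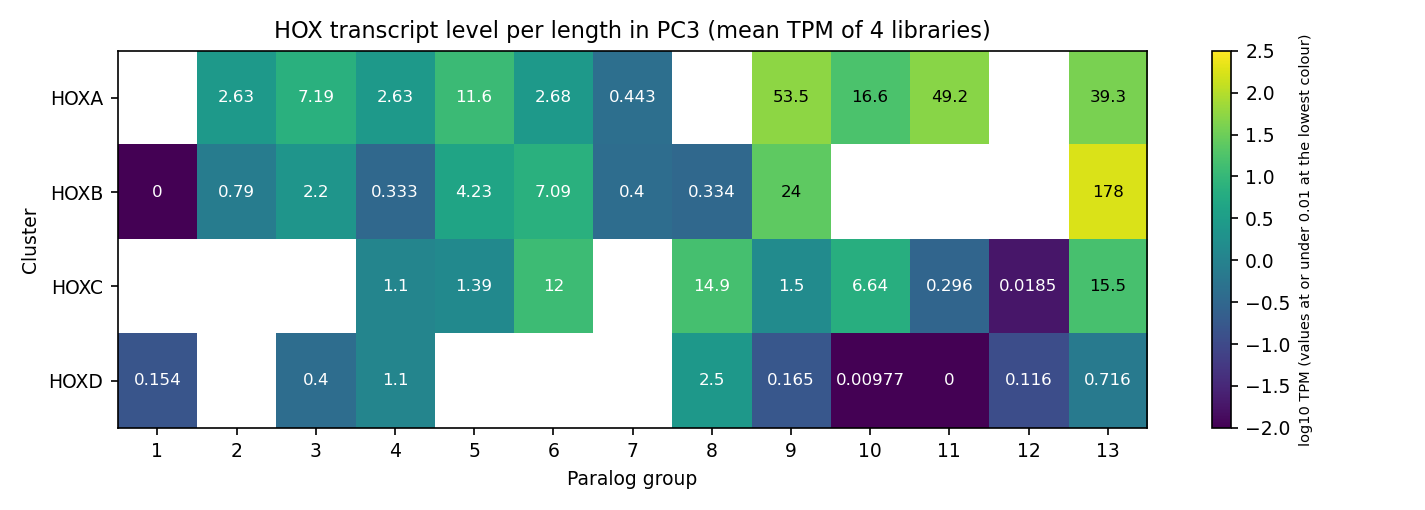
Mean level per exon length (TPM over 4 libraries) of each HOX gene, with clusters as rows and paralog groups as columns; white squares have no gene or 1 that is not shown. HOXB13 is at 178 TPM and the HOXA genes of groups 9 to 13 at 16.6 to 53.5 TPM, while the HOXD row does not pass 2.5 TPM.

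Levels were compared between genes per length, as TPM, with exon lengths from GENCODE 29. HOXB13 was the most abundant HOX transcript, at 187, 188, 165 and 171 TPM in shNC replicates 1 and 2 and sh812 replicates 1 and 2. It ranked 994 among 19875 protein-coding genes and made up 37.4% to 39.8% of all HOX TPM in a library. The other 3 transcripts above 30 TPM were HOXA9 at 53.5 TPM, HOXA11 at 49.2 TPM and HOXA13 at 39.3 TPM. The TPM ranges over the 4 libraries did not overlap between HOXB13 and HOXA9, between HOXA11 and HOXA13, or between HOXA13 and the next gene, HOXB9. HOXA9 and HOXA11 overlapped in TPM and so had no clear order. The order in TPM depends on the length used, which joins all annotated exons of a gene. In CPM HOXA13 came before both, at a mean of 52.1 against 42.2 for HOXA9 and 29.6 for HOXA11. From HOXB9 down to HOXA5 the ranges of neighbours in TPM overlapped at each step. Posterior genes, of groups 9 to 13, held 81.9% to 85.1% of HOX TPM in each library, genes of groups 4 to 8 held 11.6% to 14.5%, and genes of groups 1 to 3 held 3.37% to 3.99%. The 4 genes of group 13 alone held 49.1% to 51.8%. In bulk libraries such as these, fewer cells that express a gene and less RNA per cell cannot be told apart.

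The proximal promoters of 4 genes are printed to show the sequence in front of strongly read and unread members: HOXA9 and HOXA13, which are among the 3 HOXA genes with the highest TPM, and HOXB1 and HOXD11, which had no count. Each line gives the 250 bases before a RefSeq transcription start, 5′ to 3′ on the gene's strand (GRCh38.p14), with CG dinucleotides in capitals.
HOXA13: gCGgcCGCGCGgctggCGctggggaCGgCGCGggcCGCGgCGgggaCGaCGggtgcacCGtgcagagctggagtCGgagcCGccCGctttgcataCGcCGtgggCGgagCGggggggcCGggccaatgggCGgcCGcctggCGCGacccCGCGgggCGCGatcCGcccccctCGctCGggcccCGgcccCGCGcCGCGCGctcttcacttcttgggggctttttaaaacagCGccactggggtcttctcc
HOXA9: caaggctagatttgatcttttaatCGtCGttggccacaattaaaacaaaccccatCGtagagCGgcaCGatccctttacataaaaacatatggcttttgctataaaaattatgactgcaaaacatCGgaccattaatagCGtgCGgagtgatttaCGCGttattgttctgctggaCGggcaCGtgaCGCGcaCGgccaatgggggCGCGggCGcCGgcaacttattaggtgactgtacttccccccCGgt
HOXB1: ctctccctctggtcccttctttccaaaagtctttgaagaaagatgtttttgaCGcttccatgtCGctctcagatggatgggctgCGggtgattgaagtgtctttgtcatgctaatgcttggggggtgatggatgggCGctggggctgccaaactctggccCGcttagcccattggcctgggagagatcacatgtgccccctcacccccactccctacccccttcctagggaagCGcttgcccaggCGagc
HOXD11: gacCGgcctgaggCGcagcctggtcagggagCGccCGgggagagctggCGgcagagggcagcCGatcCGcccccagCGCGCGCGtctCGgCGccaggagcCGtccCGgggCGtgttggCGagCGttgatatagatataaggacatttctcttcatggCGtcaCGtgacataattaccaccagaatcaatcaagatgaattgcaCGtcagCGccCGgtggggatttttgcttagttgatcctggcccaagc
The HOXA13 window is chr7:27200092-27200341 and the HOXA9 window chr7:27165538-27165787, both on the minus strand. The HOXB1 window is chr17:48531012-48531261 on the minus strand, and the HOXD11 window chr2:176107030-176107279 on the plus strand. They hold 40, 20, 7 and 23 CG in the order printed. The first bases after the RefSeq start were found in a GENCODE 29 transcript of the gene for HOXA13. For HOXA9, HOXB1 and HOXD11 they were not, and over all HOX windows they were found for 13 of 27. The HOXA9 and HOXD11 windows lie inside the GENCODE 29 spans of these genes, so they need not be the starts in use in PC3.

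RefSeq windows were matched for 20 of the 39 HOX genes, giving 26 distinct windows because HOXA3 and HOXA10 have several starts and HOXC4 and HOXC5 share 1. CG dinucleotides were dense in these windows, with a median of 19.5 per window against 11 over all 35116 promoters. The median was 19 over 15 windows of 8 expressed genes, with a range of 0 to 40. It was 21 (4 to 27) over 5 windows of genes tested at a lower level. Over 6 windows of genes that were not tested it was 23 (7 to 31). Many of the 15 windows were starts of HOXA3, and no expressed gene of HOXB or HOXC had a window. These medians therefore do not compare genes by expression. The letters CCAAT, searched on both strands, stood in 65.4% of HOX windows and 32% of all windows. TATAAA stood in 19.2% of HOX windows (5 of 26) and 10.7% of all. TGATTNAT, a form of the joint PBX and HOX site, stood in 7.7% of HOX windows and 2.5% of all. The 7.7% is only 2 windows, those of HOXA2 and HOXD11. These matches are descriptions of letters and not of binding. HOXB9 and HOXB13 had no window here.

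HOXA, which spans 107.1 kb of chromosome 7 (27092993 to 27200106, build hg38, GENCODE 29), was read along most of its length, with groups 9 to 13 highest. HOXA13, a regulator of limb and urogenital development, had 52.2 and 53.1 CPM in shNC and 51.5 and 51.6 CPM in sh812. HOXA11, known for its role in the uterus and forelimb, had 26.7 and 35.5 CPM in shNC and 28.2 and 28.0 CPM in sh812. The high HOXA11 value was that of shNC replicate 2 alone, and the groups overlapped. HOXA9, a gene of blood stem cells and leukemia, had 44.1 and 40.4 CPM in shNC and 42.5 and 42.0 CPM in sh812. HOXA10, a regulator of the uterus and of blood cells, had 16.1 and 17.2 CPM in shNC and 15.3 and 15.6 CPM in sh812. HOXA10 was lower in both sh812 libraries than in both shNC libraries, as was HOXA13. Below them lay HOXA3 and HOXA5, at means of 8.08 and 5.16 CPM, and HOXA2 and HOXA4, at 1.69 and 1.20 CPM. HOXA6 averaged 0.899 CPM, and HOXA7, which lies between HOXA6 and HOXA9, had only 7 and 5 counts in shNC and 6 and 22 in sh812.

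HOXB, on chromosome 17 from 48528526 to 48729178, held 2 well-read genes at its 5′ end. HOXB13 had 161 and 168 CPM in shNC and 155 and 160 CPM in sh812, the groups lying side by side without overlap. HOXB9, a posterior HOX gene with roles in the rib cage and mammary gland, had 14.4 and 11.8 CPM in shNC and 18.6 and 20.1 CPM in sh812. The start of HOXB9 lies 102.8 kb from that of HOXB13 and 11.4 kb from that of HOXB8, which had 12, 0, 8 and 6 counts in the 4 libraries. HOXB7 had 12 counts or fewer in each library. Further 3′, HOXB6, HOXB3 and HOXB5 averaged 4.81, 4.27 and 2.25 CPM, and HOXB2 and HOXB4 lay under 0.5 CPM.

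HOXC, on chromosome 12, from 53938765 to 54056030, had 4 expressed genes. HOXC6 averaged 11.1 CPM, HOXC13, a gene of hair and nail formation, 9.77 CPM, HOXC8 7.36 CPM and HOXC10 4.04 CPM. HOXC11 and HOXC12, which lie between HOXC10 and HOXC13, averaged 0.252 and 0.0158 CPM. HOXC4, HOXC5 and HOXC9 averaged 0.651 to 0.782 CPM. HOXD, on chromosome 2 from 176092891 to 176190907, was nearly unread. HOXD8 was its 1 expressed gene, and had 1.53 and 1.61 CPM in shNC against 2.05 and 1.68 CPM in sh812. HOXD13, HOXD4 and HOXD3 averaged 0.371 to 0.426 CPM, and HOXD1, HOXD9, HOXD10 and HOXD12 had at most 6 counts in any library. Summed TPM was 197 ± 1.39 in shNC and 182 ± 2.20 in sh812 for HOXA and 224 ± 4.45 and 211 ± 6.61 for HOXB (SD, n = 2). It was 55.02 ± 6.46 and 51.7 ± 0.106 for HOXC and 5.25 ± 0.595 and 5.06 ± 0.0626 for HOXD (SD, n = 2). TPM is scaled to each library's own per-length total. The CPM sums of HOXA were 159.6 and 162.4 in shNC against 157.2 and 159.6 in sh812. For HOXB they were 189.3 and 191.5 in shNC against 186.1 and 191.9 in sh812. Those of HOXC were 36.99 and 31.91 against 34.47 and 35.18, and those of HOXD 2.979 and 3.004 against 3.305 and 3.241.

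**Figure D2:**
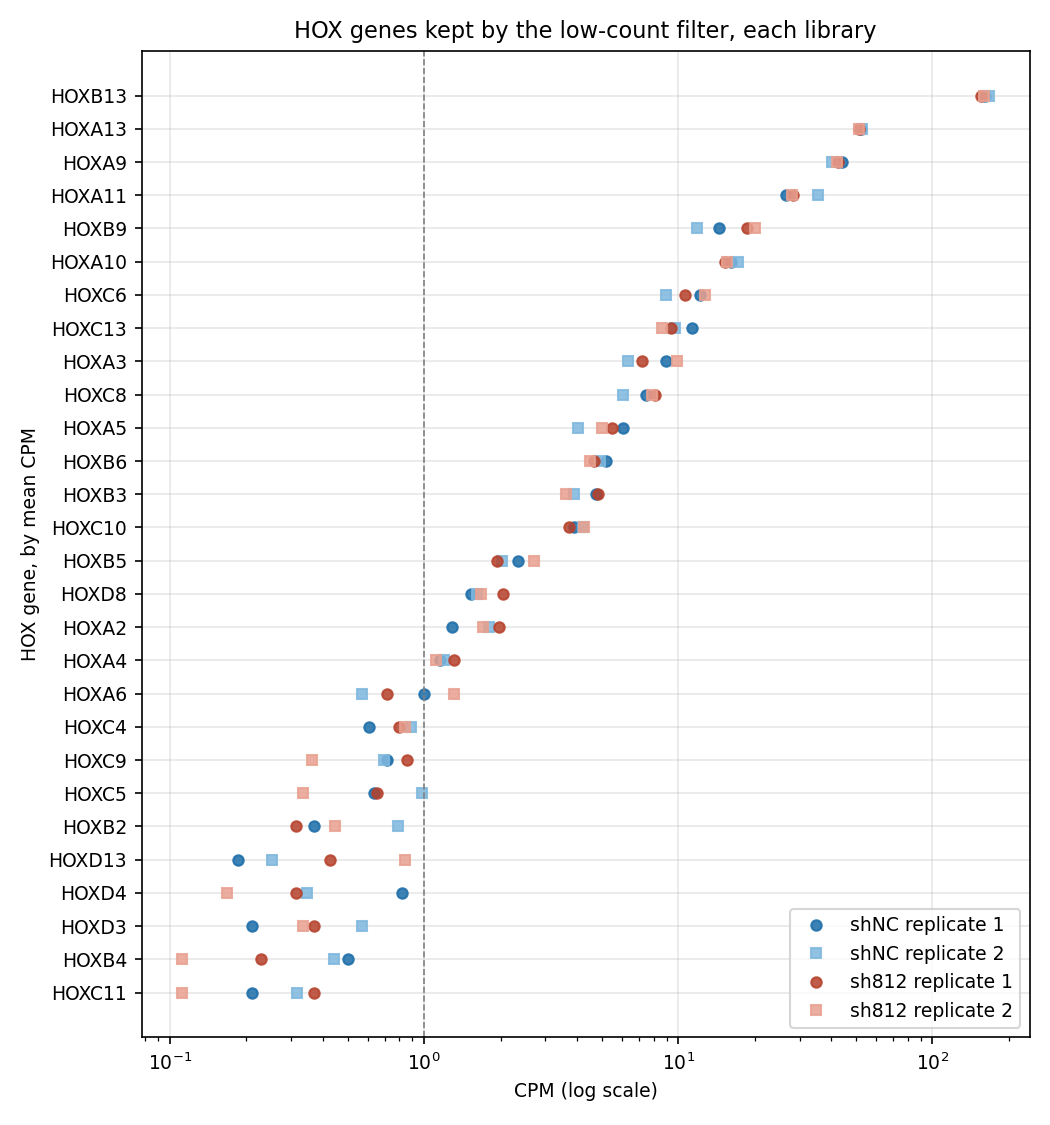
CPM of 28 of the HOX genes kept by the low-count filter, on a log axis, with 1 point per library and a dashed line at 1 CPM. The libraries lie close together for HOXB13, HOXA13 and HOXA9, both sh812 points lie to the right of both shNC points for HOXB9, and the points spread widely under 1 CPM.

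In the comparison of sh812 with shNC, 1 of the 29 HOX genes tested was called at an edgeR adjusted p under 0.05. It was HOXB9, which was higher in sh812. HOXB9 is annotated at 48621159 to 48626356 of chromosome 17, minus strand. Its mean was 13.1 ± 1.85 CPM for shNC against 19.3 ± 1.05 CPM for sh812 (SD, n = 2). The log2 fold change was 0.55 (SE 0.12, 95% interval 0.30 to 0.80), or 1.47-fold. The adjusted p was 0.00395 (edgeR, quasi-likelihood test, Benjamini-Hochberg over the 16802 genes tested). Both sh812 libraries lay above both shNC libraries. The share of HOX genes called was 3.45% (1 of 29), against 10.8% of all genes tested. Calls in the higher direction were 5.43% of all genes and calls in the lower direction 5.42%. No HOX gene was called lower, also with DESeq2 and limma-voom, and at an unadjusted p under 0.05 edgeR gave 0 HOX genes lower, DESeq2 0 and limma-voom 1. The HOXB9 call was lost without sh812 replicate 2 (log2 fold change 0.50, edgeR adjusted p = 0.105), a fit in which calls over all genes fell to 424 from 1822. Without shNC replicate 1 its log2 fold change was 0.71 and without shNC replicate 2 it was 0.42, both called. HOXB9 shares no exon base with another gene model in GENCODE 29.

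**Figure D3:**
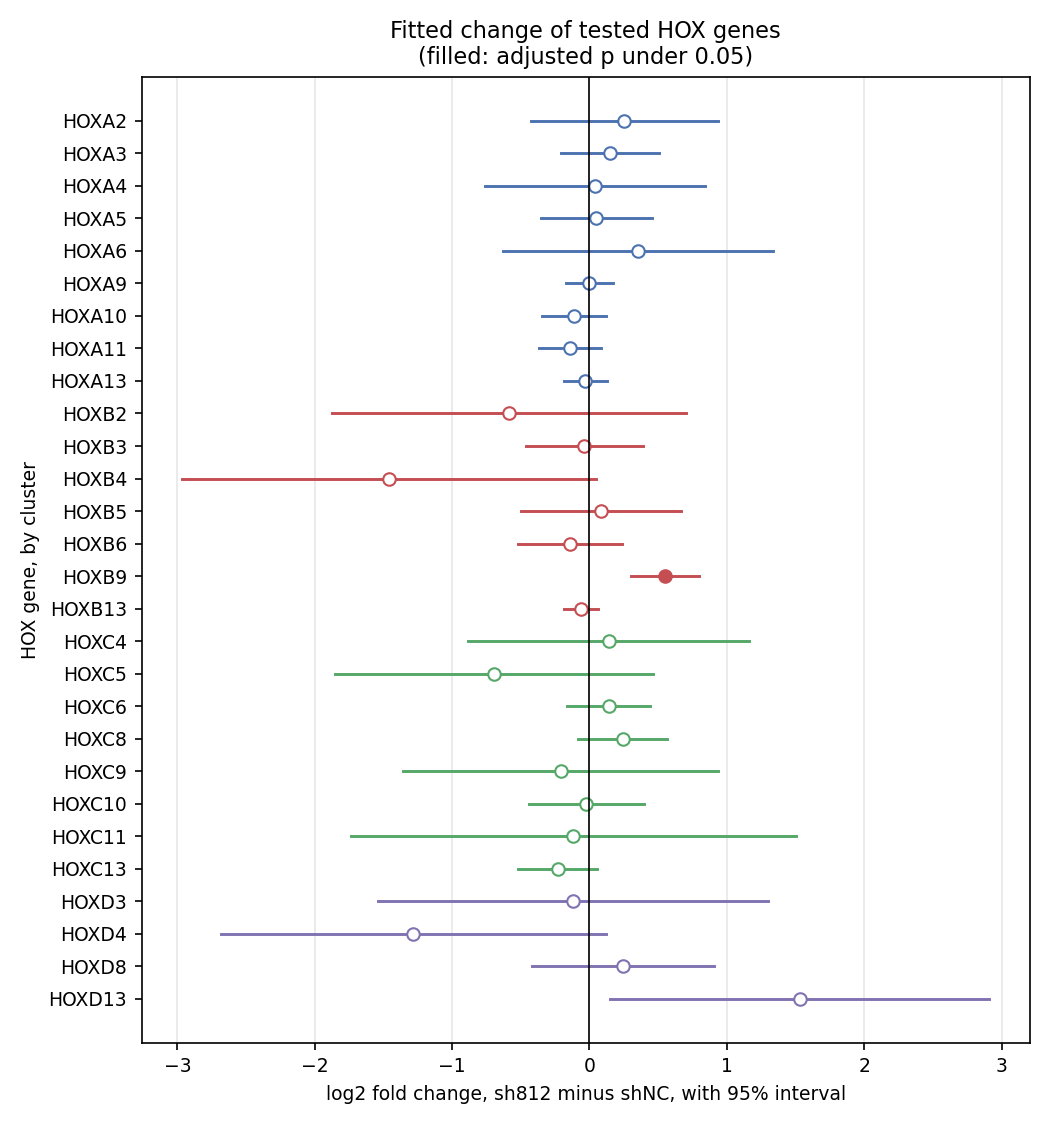
Fitted log2 fold change (sh812 minus shNC) of 28 tested HOX genes with their 95% intervals, coloured by cluster; filled points passed an adjusted p of 0.05. HOXB9 is the filled point at 0.55, and the intervals of HOXB13, HOXA13 and HOXA9 are the narrowest, while those of genes under 1 CPM, such as HOXD13 and HOXB4, are wide.

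The 4 most abundant HOX genes had narrow intervals around small differences. HOXB13 had a log2 fold change of -0.06 (95% interval -0.18 to 0.06, edgeR adjusted p = 0.595), which bounds its fold between 0.88 and 1.05. For HOXA13 the log2 fold change was -0.03 (-0.18 to 0.13), for HOXA9 0.0001 (-0.17 to 0.17) and for HOXA11 -0.14 (-0.36 to 0.08). HOXA11 was called lower without shNC replicate 1 (log2 fold change -0.34, edgeR adjusted p = 0.0145) and stood at 0.08 without shNC replicate 2, so its value rests on which control library is used. The fit without shNC replicate 1 called 2 HOX genes, HOXA11 and HOXB9. Over the 29 genes tested the median log2 fold change was -0.02, with 14 higher and 15 lower, beside -0.0056 over all genes tested. The median absolute log2 fold change was 0.14 for HOX genes and 0.17 for all genes. Of the 19 expressed genes 17 had an absolute log2 fold change under 0.3, and HOXB9 did not.

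Groups did not overlap in 12 of the 29 HOX genes tested (41.4%), 5 higher and 7 lower in sh812, against 53.6% of all genes tested. The fitted difference was smaller than the gap between the replicates of at least 1 group in 19 of the 29 genes. A gap between single libraries varies more than a difference between group means. The same count was not made over all genes tested, so it does not set HOX genes apart. For HOXA5 the shNC replicates stood at 6.06 and 4.05 CPM, further apart than its group means of 5.06 and 5.26 CPM. HOXC6 had a gap of like size, with 12.2 and 8.95 CPM in shNC and 10.6 and 12.7 CPM in sh812.

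At an unadjusted p under 0.05 edgeR gave 2 HOX genes, HOXB9 and HOXD13 (6.9% of those tested), against 24.8% of all genes tested. HOXD13, which lies under 1 CPM, had 7 and 8 counts in shNC and 15 and 30 in sh812, a log2 fold change of 1.53 (SE 0.67) with an edgeR adjusted p of 0.153. HOXB4, known for expanding blood stem cells, had 19 and 14 counts in shNC and 8 and 4 in sh812, with a log2 fold change of -1.46 (SE 0.73, edgeR adjusted p = 0.217). HOXD4 had 31 and 11 counts in shNC and 11 and 6 in sh812, with a log2 fold change of -1.28 (SE 0.68, edgeR adjusted p = 0.25). None of the 3 passed the adjusted threshold, though the unadjusted 95% interval of HOXD13, 0.15 to 2.91, did not reach 0. Their values moved with single libraries. HOXD13 stood at 0.97 without sh812 replicate 2, HOXB4 at -1.04 without sh812 replicate 2 and HOXD4 at -0.53 without shNC replicate 1. HOXD9 had 6 and 4 counts in shNC and 0 and 1 in sh812 and was not tested. HOXD12 had 6 counts in sh812 replicate 2 and none in the other libraries.

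**Figure D4:**
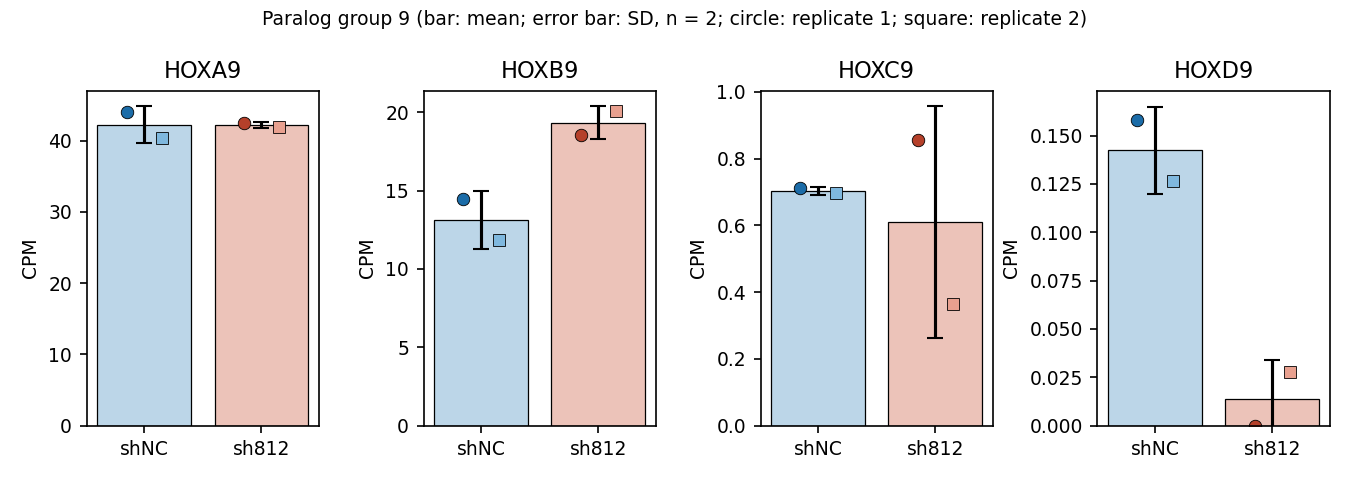
CPM of the 4 genes of paralog group 9 in each arm (bars are means, error bars SD, points single libraries), each panel on its own linear axis from 0. HOXB9 is higher in both sh812 libraries, HOXA9 is level at 42.2 and 42.3 CPM, and HOXC9 and HOXD9 are under 1 CPM.

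In paralog group 9 HOXA9 was the most abundant, at 42.2 ± 2.60 CPM for shNC against 42.3 ± 0.396 CPM for sh812 (SD, n = 2), and HOXB9 was the called gene. HOXC9 had 27 and 22 counts in shNC and 30 and 13 in sh812, with a log2 fold change of -0.21 (edgeR adjusted p = 0.87). Along HOXB, the tested neighbours of HOXB9 were HOXB6, at a log2 fold change of -0.14 (95% interval -0.52 to 0.24), and HOXB13. The difference between HOXB9 and these genes in response was not tested.

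**Figure D5:**
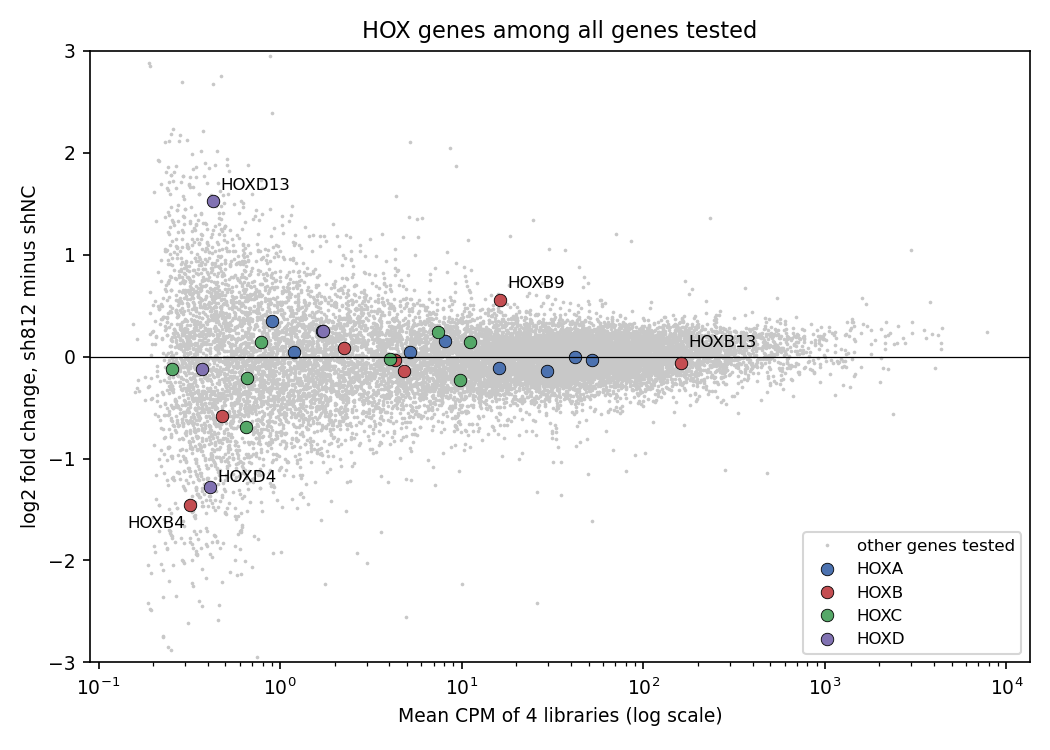
Mean CPM (log axis) against log2 fold change for 28 tested HOX genes, coloured by cluster, over other genes tested in grey; 17 genes lie outside the plotted range. Most HOX genes lie near 0, HOXB9 is at 0.55, and HOXD13, HOXB4 and HOXD4 lie in the wide cloud under 1 CPM.

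Noncoding RNAs of the clusters were read at low levels, and 0 of 12 tested were called, against 10.8% of all genes tested. The table holds 18 such genes. Of the 12 tested, 3 had higher and 9 lower values in sh812, with a median log2 fold change of -0.29, and groups did not overlap in 7, against 53.6% of all genes. None had an unadjusted p under 0.05 in edgeR, DESeq2 or limma-voom, although DESeq2 gave 10 of them no adjusted p. HOTTIP, an RNA from the 5′ end of HOXA, had 7.04 and 6.36 CPM in shNC and 5.04 and 6.04 CPM in sh812 (log2 fold change -0.28, edgeR adjusted p = 0.333). HOXA11-AS had 5.19 and 5.34 CPM in shNC and 4.61 and 6.32 CPM in sh812. HOTAIR, an RNA from HOXC known for binding Polycomb, had 16 to 29 counts per library. HOXB-AS3, HOXA-AS3, HOTAIRM1, HAGLR, HOXA-AS2, HOXD-AS2, HOXA10-AS, HOXC13-AS and HOXC-AS2 averaged 0.372 to 1.81 CPM. Of the 29 tested HOX genes 17 share exon bases with a gene on the opposite strand, such as HOXA11 with HOXA11-AS over 717 bases. Whether counting used strand is not given in the sources used here, so reads of such pairs cannot be told apart in the table. With same-strand overlaps included, 21 of the 29 share exon bases with another GENCODE 29 gene. A same-strand gene, AC009336.2, covers 80.5% of the exon bases of HOXD4 and 62.2% of those of HOXD3. The part of these overlaps in the low counts of such genes was not tested.

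Of 55 tested genes that work with HOX proteins or set their expression, in 4 lists, 6 were called (10.9%), against 10.8% of all genes tested. Of 10 TALE cofactor genes tested none was called in edgeR, DESeq2 or limma-voom, and 1 (PBX4) had an unadjusted p under 0.05 in edgeR. Of 22 Polycomb genes BMI1, a subunit of Polycomb repressive complex 1, rose by 0.20 on the log2 scale, from 102 ± 2.99 to 117 ± 6.02 CPM (SD, n = 2; edgeR adjusted p = 0.0442). No Polycomb gene was called lower, while 2, EZH2 (-0.22) and PHC1 (-0.34), were lower at an unadjusted p under 0.05 in edgeR. With library size alone 0 Polycomb genes were called higher and 1 lower. Of 14 MLL and trithorax genes AFF4, a scaffold of the super elongation complex, fell by 0.34 on the log2 scale, from 109 ± 4.26 to 86.3 ± 0.219 CPM (SD, n = 2; edgeR adjusted p = 0.0012). No gene of that list was called higher. At an unadjusted p under 0.05 edgeR gave 4 of the 14, against 24.8% of all genes tested. Of these 3 were lower, AFF4, KDM6B (-0.33) and KDM6A (-0.25), and 1 was higher, WDR5 (0.15). Retinoic acid is a classic inducer of HOX genes. Of 9 tested genes of the CDX and retinoid list 2 were called higher and 2 lower, against 5.43% and 5.42% of all genes tested. With DESeq2 0 of the 9 were called higher and 1 lower, and 3 had no adjusted p. RARB, a retinoic acid receptor gene, had 10 and 4 counts in shNC and 51 and 60 in sh812, with a log2 fold change of 2.95 (SE 0.54, edgeR adjusted p = 0.000753), while DESeq2 gave it no adjusted p. RARA, another receptor gene, rose by a log2 fold change of 0.32 (edgeR adjusted p = 0.0388). ALDH1A3, an enzyme that makes retinoic acid, fell from 385 to 330 CPM, a log2 fold change of -0.22 (edgeR adjusted p = 0.0115). CYP26B1, an enzyme that degrades it, had a log2 fold change of -0.58 (edgeR adjusted p = 0.0274).

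Of these 6 calls, RARB was the 1 that held with each library left out. Without sh812 replicate 1 or sh812 replicate 2, AFF4 had log2 fold changes of -0.35 and -0.34, with edgeR adjusted p = 0.0663 and 0.0641. BMI1 had 0.26 and 0.15 (edgeR adjusted p = 0.187 and 0.464), and RARA 0.29 and 0.34 (0.326 and 0.201). ALDH1A3 had -0.24 and -0.20 (0.198 and 0.269), and CYP26B1 -0.59 and -0.56 (0.195 and 0.199). The fitted folds of AFF4, RARA, ALDH1A3 and CYP26B1 thus moved little while their adjusted p rose. BMI1 and RARA also lost their calls with library size alone, with log2 values of 0.16 (edgeR adjusted p = 0.13) and 0.27 (edgeR adjusted p = 0.0842). RARA lost it with no low-count filter too (edgeR adjusted p = 0.0558), and with DESeq2 RARA and CYP26B1 stood at adjusted p = 0.0582 and 0.0697.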

How the data were processed

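RNA from 2 shNC and 2 sh812 PC3 libraries was measured with a strand-keeping dUTP protocol and paired reads, per the labels' protocols. The authors deposited 1 table of raw read counts per gene, not normalized. Per the submitters' processing notes the tools were fastp, STAR 2.7.1a, featureCounts and DESeq2 with hg38; annotation release and strand setting are not given in the sources used here. Here counts were filtered with filterByExpr, scaled by TMM and tested with edgeR 4.0.16 (R 4.3.3), the quasi-likelihood test of sh812 against shNC, with Benjamini-Hochberg adjustment over 16802 genes and a threshold of 0.05. CPM uses TMM-scaled library sizes and serves comparisons between arms; TPM uses GENCODE 29 exon lengths and serves comparisons between genes. The floor for a count of 0 is 3 counts and covers counting error only. Libraries held 31450648 to 37041330 counts.

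Counts over the HOX genes cover all 39; values of some genes are not reported here. Genes of other lists were named where called, with the noncoding RNAs of the clusters that were tested. PBX4, EZH2, PHC1, KDM6A, KDM6B and WDR5 were named after their values were seen. The members and lists were chosen with earlier results of these data known. Promoters are from RefSeq (GRCh38.p14), whose 20 matches were made by symbol. The test was checked on simulated counts of this design: of the genes changed by a log2 of 0.5, 51.0% were called, and at a log2 of 1, 72.2%. The simulated counts gave 126 calls, 7 of them false, against 1822 calls in the data. Fewer genes changed in the simulation, so its rates need not hold for the data. Alternatives were other scalings, no filter or a CPM filter, DESeq2 1.42.0, limma-voom (limma 3.58.1), a length and GC trend, a replicate block and each library left out. Those for genes of the other lists were chosen after seeing the data.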

Additional observations from a re-analysis of the deposited data

How the results depend on the processing

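The number of HOX genes called was 1, HOXB9, under each of the 9 settings that keep all libraries, and 0 to 2 with 1 library left out; at 0 (without sh812 replicate 2) 1 HOX gene had an unadjusted p under 0.05 in edgeR. HOXB9 had log2 fold changes of 0.50 to 0.56 with all libraries and 0.42 to 0.71 with 1 left out, with adjusted p from 1.733e-05 to 0.105 over edgeR, DESeq2 and limma-voom. METTL3 stayed between -2.52 and -2.33. Calls over all genes went from 1822 to 313 without sh812 replicate 1, 424 without sh812 replicate 2 and 3326 without shNC replicate 2. Expressed HOX genes numbered 19 to 20 with 1 library left out. Libraries with the same replicate number in both arms showed almost no shared deviation (correlation of deviations 0.0164). The labels do not say whether such libraries were paired. With a replicate block 1 HOX gene was called, HOXB9 at 0.56 (adjusted p = 0.00156 in edgeR), among 2001 calls in all.

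The median HOX log2 fold change of -0.02 was -0.066 with library size alone, 0.0349 with a filter of at least 1 CPM, -0.0014 with limma-voom and -0.0413 with a length and GC trend removed, and -0.0429 to -0.0080 with 1 library left out. Library size alone moved the median of all genes to -0.05, with 561 calls higher and 1328 lower. Signs turned for genes near 0: HOXA9 (-0.0452 with library size alone, -0.0019 with no filter, -0.0056 with the CPM filter, -0.0014 with limma-voom, -0.0413 with the trend removed), HOXA4 (-0.0046 with library size alone, -0.0481 with the trend removed), HOXD3 (0.0651 with limma-voom) and, with the trend removed, HOXA5 (-0.0344), HOXB3 (0.0258) and HOXC13-AS (-0.0334). The cause was not tested.

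With 1 library left out, log2 fold changes crossed 0 for 15 HOX genes, in these ranges: HOXA3 -0.10 to 0.42, HOXA4 -0.0782 to 0.15, HOXA5 -0.20 to 0.38, HOXA6 -0.15 to 0.83, HOXA9 -0.0554 to 0.0638, HOXA11 -0.34 to 0.0812, HOXB2 -1.05 to 0.0486, HOXB3 -0.26 to 0.16, HOXB5 -0.18 to 0.31, HOXC4 -0.12 to 0.43, HOXC6 -0.0532 to 0.38, HOXC9 -0.95 to 0.28, HOXC10 -0.12 to 0.0727, HOXC11 -1.20 to 0.50 and HOXD3 -0.69 to 0.74. The same held for HOXA10-AS (-0.64 to 0.14), HOXA11-AS (-0.19 to 0.26), HOXC-AS2 (-1.20 to 0.47), HOXC13-AS (-0.0851 to 0.24) and HOXD-AS2 (-0.59 to 0.17). A lone library in an arm is then assumed to vary like the other arm. Depth limits genes under 1 CPM, whose SE reaches 0.79, and DESeq2 gave 13 of the 29 HOX genes no adjusted p.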
